A study of Mus musculus with 20 samples.

Results

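Type I interferon response genes are the transcripts that cells make after interferon alpha or beta binds its receptor. A list of 39 such genes was followed in microglia purified by fluorescence-activated sorting from the perfused brains of 8.5-month-old littermate mice. The genes were taken by name, with earlier results of these data known, and each was read from a probe set annotated to that gene alone. Of the 39, 37 were measured among the 19751 genes with such a probe set, and 36 passed the filter on low values and were tested. Isg15, the ubiquitin-like modifier, had only a probe set shared with other genes. Ifi44 had no probe set of its own symbol and was not analysed here. Cmpk2, a mitochondrial nucleotide kinase, was measured but did not pass the filter.

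The mice were wild type (WT), Trem2-/-, 5XFAD or Trem2-/-5XFAD, with 4, 4, 5 and 6 arrays respectively, and 1 more array had labels that conflict and entered no group. 5XFAD mice carry transgenes for mutant human amyloid precursor protein and presenilin 1, driven in neurons by the Thy1 promoter, and deposit amyloid in the brain. Trem2-/- mice lack the microglial lipid receptor TREM2. The design asks how microglia respond to amyloid and what changes when Trem2 is missing. The labels do not say whether an array holds 1 animal or several, so that p-values measure the spread between these arrays, which may be partly technical.

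Interferon alpha and beta bind the receptor made of IFNAR1 and IFNAR2, and the kinases JAK1 and TYK2 then phosphorylate STAT2, among other targets. STAT2 acts with IRF9 at interferon-stimulated response elements in promoters, which raises antiviral genes, among them sensors of viral nucleic acid, the Ifit, OAS, Mx and Schlafen families, the ISG15 system and the chemokine Cxcl10. In the brain, microglia both make and answer type I interferon, and a group of microglia with high interferon-stimulated transcripts is known from mouse models of amyloid deposition and from ageing.

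The response element is seen in the promoter letters of several members. RefSeq promoter windows (GRCm38.p6, 250 bases before to 50 bases after the start of the gene) matched 30 of the 39 members. The letters GAAANNGAAA were searched on both strands and were found in the windows of 15 of these 30 members (50%), against 1079 of 27025 genes with a window (3.99%). Among members that were higher in 5XFAD than in WT microglia (below), 8 of 15 windows held the letters, and among the other members 7 of 15 did. Those other members include Isg15, which held the letters, and Ifi44 and Cmpk2, which did not, and none of these was tested. A match of letters is a description and does not show binding. The following stretches run from 180 to 61 bases before the start, 5′ to 3′ on the strand of the gene, with the matches to GAAANNGAAA or its reverse complement in capitals. They show how the same letters recur in members of different families, beside Oasl2, which had the second largest difference between 5XFAD and WT and no match in its window.
Ifit1 (chr19:34640709-34640828, plus strand): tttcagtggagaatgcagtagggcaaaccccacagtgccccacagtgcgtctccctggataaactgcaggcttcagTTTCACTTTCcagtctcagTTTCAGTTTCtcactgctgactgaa
Ifit3 (chr19:34583349-34583468, plus strand): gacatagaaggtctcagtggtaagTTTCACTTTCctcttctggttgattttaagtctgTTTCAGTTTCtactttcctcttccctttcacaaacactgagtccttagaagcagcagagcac
Slfn5 (chr11:82951922-82952041, plus strand): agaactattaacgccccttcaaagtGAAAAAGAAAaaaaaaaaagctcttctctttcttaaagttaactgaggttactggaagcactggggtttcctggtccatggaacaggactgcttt
Rsad2 (chr12:26456513-26456632, minus strand): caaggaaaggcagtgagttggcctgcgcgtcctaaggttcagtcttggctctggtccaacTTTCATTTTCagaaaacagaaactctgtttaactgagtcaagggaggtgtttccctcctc
Bst2 (chr8:71537533-71537652, minus strand): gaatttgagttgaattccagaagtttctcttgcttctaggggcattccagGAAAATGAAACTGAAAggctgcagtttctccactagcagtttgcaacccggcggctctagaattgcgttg
Oas3 (chr5:120777720-120777839, minus strand): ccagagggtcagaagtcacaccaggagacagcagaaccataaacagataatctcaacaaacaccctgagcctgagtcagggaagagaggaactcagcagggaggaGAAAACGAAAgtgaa
Oasl2 (chr5:114896754-114896873, plus strand): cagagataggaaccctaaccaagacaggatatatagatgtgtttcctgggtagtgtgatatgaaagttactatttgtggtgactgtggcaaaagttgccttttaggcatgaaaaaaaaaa
Ifit1, Ifit3 and Bst2 each held 2 matches, which overlap in Bst2, and Slfn5, Rsad2 and Oas3 held 1 each.

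Values below are log2(intensity + 1) of the deposited signals, called log2 values, and a log2 difference is the difference of 2 group means of them. Array medians lay close together, between 25.7 and 28.6 in intensity. Trem2 read 11.14 to 11.39 on the WT arrays and 11.45 to 11.80 on the 5XFAD arrays, against 6.84 to 7.02 on the Trem2-/- arrays and 6.75 to 7.60 on the Trem2-/-5XFAD arrays, in keeping with the genotype labels of the 19 assigned arrays. The microglial genes P2ry12, Tmem119 and Cx3cr1 were bright in every group, with group medians of 10.72 to 12.23. Xist signal was present on 3 of 4 WT, 3 of 4 Trem2-/-, 1 of 5 5XFAD and 0 of 6 Trem2-/-5XFAD arrays, and the others had Y-linked signal, so the sexes are unequally spread over the genotypes. WT 1, WT 2, 5XFAD 1 and 5XFAD 2 carried gland transcripts (mean log2 value of Pip, Prol1, Car6 and Mucl2 7.77 to 9.0, against 2.75 to 6.17 on the other 15 assigned arrays), and Trem2-/- 1 and Trem2-/-5XFAD 1 had the highest neutrophil markers. In a bulk sample, fewer cells of a type and less RNA per cell cannot be told apart.

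**Figure D1:**
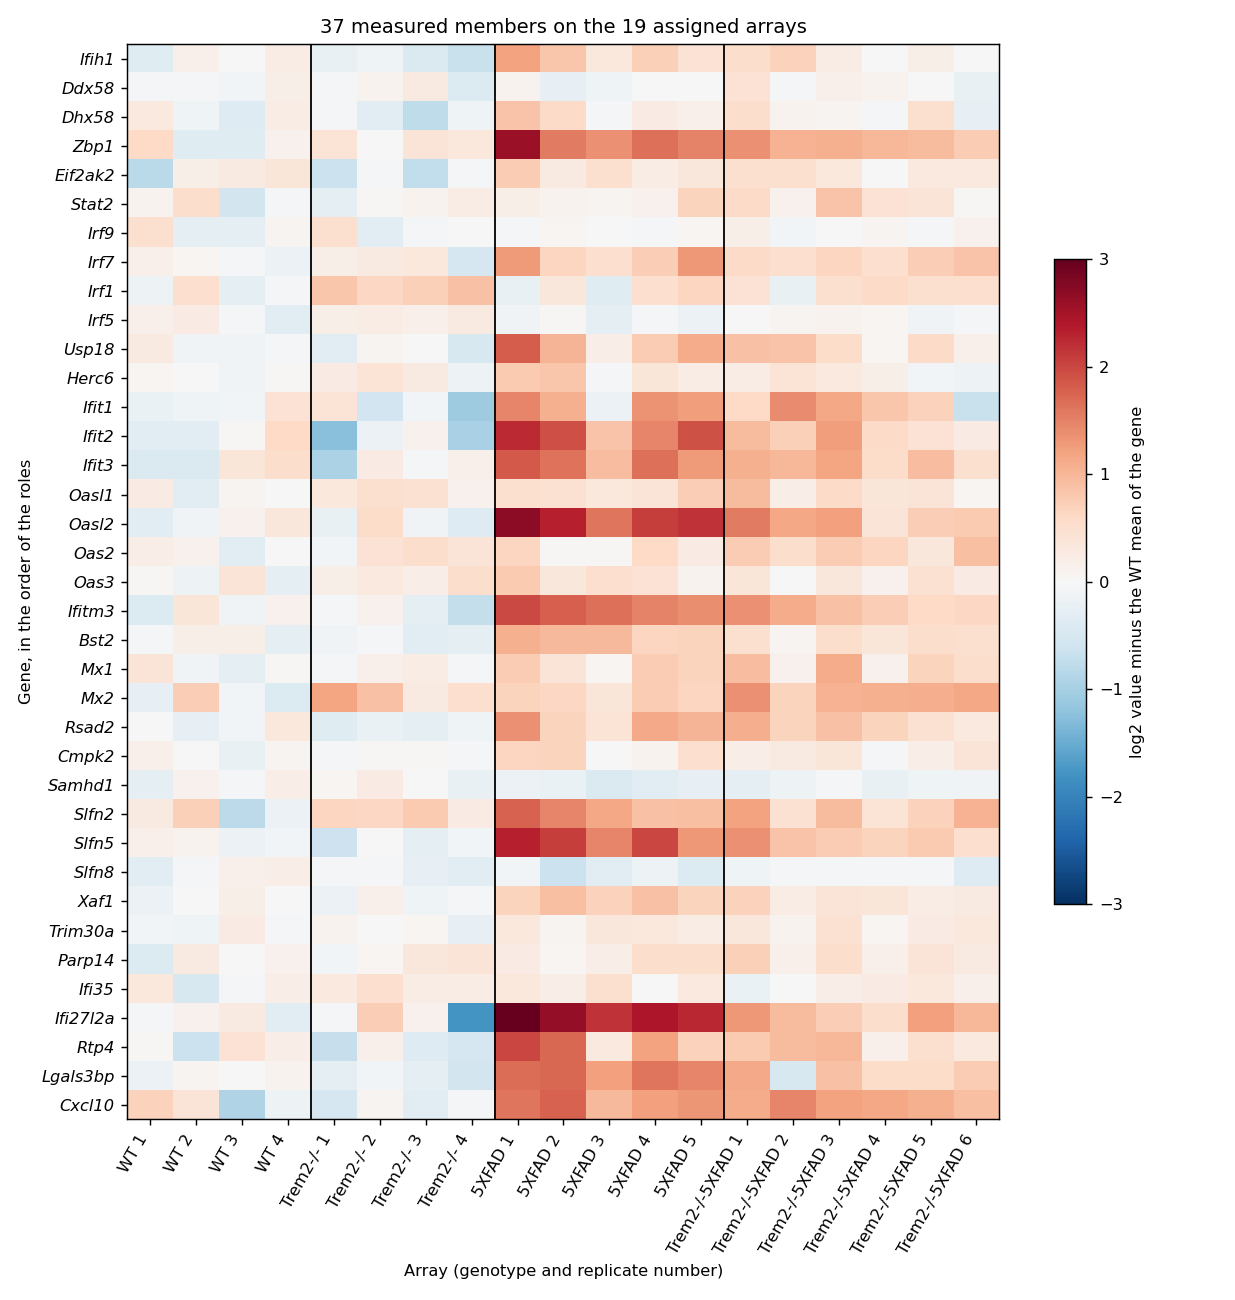
Heat map of the 37 measured members (rows, ordered by role) on the 19 assigned arrays (columns, by genotype and replicate number), coloured by the log2 value minus the WT mean of the gene. The 5XFAD columns are reddest for Ifi27l2a, Oasl2, Slfn5 and Zbp1, the Trem2-/-5XFAD columns are paler for these genes, and Irf9, Ddx58 and Samhd1 stay near white.

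Microglia from 5XFAD mice had higher interferon response transcripts than WT microglia. Of the 36 tested members, 20 were higher and 0 were lower at an adjusted p under 0.05 (limma, Benjamini-Hochberg over all 12728 tested genes), where 8.23% of all tested genes were higher and 6.77% lower. As the members were chosen with earlier results of these data known, these counts are a description and no test of the list. The log2 difference was positive for 32 of the 36, with a median of 0.65, and the median over all tested genes was -0.02. The largest difference was 5.65-fold, for Ifi27l2a. On 16 of the 37 measured members every 5XFAD array read above every WT array, as it did for 4.85% of all 19751 measured genes. The count of 20 was 17 to 22 when 1 array at a time was left out, 13 without the 4 arrays with gland transcripts, 10 when the arrays were restricted to those with Y-linked signal (1 WT against 4 5XFAD) and 13 when restricted to those with Xist signal (3 WT against 1 5XFAD), with a lone array assumed to vary like the other groups. Ifi27l2a, Oasl2, Slfn5, Zbp1 and Ifitm3 passed in every alternative tried. Some alternatives called members lower: Slfn8 and Samhd1 passed after a second quantile normalization (-0.35 and -0.32), with the conflicting array in WT (-0.36 and -0.32) and without WT 1 (-0.42 and -0.37), and Slfn8 without the 4 arrays with gland transcripts (-0.47).

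Among the sensors of foreign nucleic acid, Zbp1 and Ifih1 were called higher in 5XFAD, while Ddx58, Dhx58 and Eif2ak2 were not. Zbp1, which binds nucleic acid in the left-handed Z form, read 5.55, 4.60, 4.59 and 5.07 on the WT arrays and 7.55, 6.51, 6.33, 6.61 and 6.44 on the 5XFAD arrays. All 5XFAD arrays lay above all WT arrays, and 5XFAD 1 stood above the other 4. The log2 difference was 1.73 (SE 0.22, adjusted p = 7.21e-06). Ifih1, which encodes the RNA sensor MDA5, rose by 0.70 on the log2 scale (SE 0.18, adjusted p = 0.0106); it no longer passed without the 4 arrays with gland transcripts (0.38) or on the arrays with Y-linked signal alone (0.43). Ddx58, which encodes RIG-I, differed by -0.05 (95% interval -0.34 to 0.23), Dhx58, which encodes LGP2, by 0.35 (-0.07 to 0.77), and Eif2ak2, which encodes the RNA-activated kinase PKR, by 0.41 (-0.01 to 0.84).

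Of the 5 transcription factors, Irf7 alone passed the test. Irf7 is the interferon-induced factor that drives the interferon alpha genes, and its log2 value was 5.55 ± 0.14 (SD, n = 4) in WT and 6.44 ± 0.37 (SD, n = 5) in 5XFAD microglia. The log2 difference was 0.89 (SE 0.17, adjusted p = 0.0010), and the groups did not overlap. Stat2 and Irf9, which act together at these response elements, differed by 0.23 (95% interval -0.17 to 0.63) and 0.00 (-0.31 to 0.32). Irf1 differed by 0.18 (-0.25 to 0.60) and Irf5, which acts below Toll-like receptors, by -0.11 (-0.34 to 0.12).

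In the ISG15 system, Usp18 rose and Herc6 did not pass the test. Usp18, the protease that removes ISG15 and restrains the receptor, was 0.98 higher on the log2 scale (SE 0.24, adjusted p = 0.00615). Its 5XFAD arrays ranged from 5.93 to 7.55 and the WT arrays from 5.61 to 6.0, with a small overlap. Without the 4 arrays with gland transcripts the Usp18 difference was 0.77, and on the arrays with Y-linked signal alone 0.89, and neither passed. Herc6, the main ISG15 ligase of the mouse, differed by 0.44 (SE 0.16, adjusted p = 0.0826).

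Of the 7 members in the Ifit and OAS families, Oasl2, Ifit2, Ifit3, Oasl1 and Oas3 were higher, and Ifit1 and Oas2 did not pass the test. Oasl2, an oligoadenylate synthetase-like protein, read 4.61, 4.85, 5.10 and 5.29 on the WT arrays and 7.63, 7.29, 6.56, 7.04 and 7.13 on the 5XFAD arrays. The groups were more than 1 log2 unit apart at their nearest arrays. Its log2 difference was 2.17 (SE 0.23, adjusted p = 1.0e-06), a 4.50-fold change. Ifit2, which binds RNA and limits translation, read 4.24, 4.21, 4.59 and 5.16 in WT and 6.79, 6.49, 5.40, 6.02 and 6.45 in 5XFAD microglia. These groups were apart, with WT 4 and 5XFAD 3 nearest each other. The Ifit2 difference was 1.68 (SE 0.29, adjusted p = 0.00033).

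Ifit3, the neighbour of Ifit2 on chromosome 19 and its binding partner, read 6.23, 6.23, 7.04 and 7.20 in WT and 8.51, 8.30, 7.59, 8.34 and 7.95 in 5XFAD microglia, again without overlap. Its log2 difference was 1.46 (SE 0.25, adjusted p = 0.000309). Without the 4 arrays with gland transcripts Ifit2 (1.09) and Ifit3 (0.84) no longer passed, nor did either on the arrays with Xist signal alone (2.13 and 1.69). Ifit1, the third gene of this cluster, differed by nearly 1 log2 unit (0.99, SE 0.37, adjusted p = 0.0763). Its WT mean of 4.32 lay within the range of the 40th percentiles of the arrays (4.16 to 4.34). Oasl1, next to Oasl2 on chromosome 5, rose by 0.48 (SE 0.15, adjusted p = 0.0383) and Oas3 by 0.43 (SE 0.14, adjusted p = 0.0445), while its neighbour Oas2 differed by 0.31 (SE 0.16, adjusted p = 0.224). The WT mean of Oas3, 4.14, lay under the range of those percentiles. The calls of Oasl1 and Oas3 were near the threshold: Oasl1 missed it in 11 alternatives and Oas3 in 23, among them 6 and 13 that leave out a single array, with log2 differences of 0.36 to 0.50 and 0.35 to 0.46 there.

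Among the genes that restrict viruses at membranes or inside the cell, Ifitm3, Rsad2, Bst2 and Mx2 were higher. Ifitm3, which blocks fusion of viruses in endosomes, read 8.60, 9.38, 8.90 and 9.14 on the WT arrays and 10.98, 10.79, 10.65, 10.48 and 10.40 on the 5XFAD arrays. All 5XFAD arrays were at least 1 log2 unit above the highest WT array. The log2 difference was 1.66 (SE 0.19, adjusted p = 2.22e-06). Rsad2, which encodes the radical enzyme viperin, rose by 0.91 (SE 0.18, adjusted p = 0.000929), and Bst2, the tether of budding virions, by 0.87 (SE 0.13, adjusted p = 4.99e-05).

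Mx2, a dynamin-like GTPase, read 4.65, 5.63, 4.79 and 4.47 on the WT arrays and 5.55, 5.5, 5.24, 5.64 and 5.53 on the 5XFAD arrays. WT 2, the one WT array with Y-linked signal, lay within the 5XFAD group, and the other 3 WT arrays lay below it. The difference of 0.61 (SE 0.20, adjusted p = 0.0484) missed the threshold in 25 alternatives, 13 of them with a single array left out (0.47 to 0.61), and was -0.15 on the arrays with Y-linked signal alone. Mx1, its relative on chromosome 16, had group means between 3.67 and 4.25, where the 40th percentile of the arrays was 4.16 to 4.34. It differed by 0.54 (SE 0.20, adjusted p = 0.0731). Samhd1, which breaks down deoxynucleotides, differed by -0.28 (SE 0.11, adjusted p = 0.1). Cmpk2, the neighbour of Rsad2 on chromosome 12, was under the same percentile on average in every group and was not tested.

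Of the 10 remaining effector genes measured, 6 rose. Ifi27l2a, an interferon-induced gene of the ISG12 family, had the largest difference of all members. It read 8.59, 8.76, 8.91 and 8.29 on the WT arrays and 11.63, 11.28, 10.80, 11.05 and 10.91 on the 5XFAD arrays, with a wide gap between the groups. The log2 difference was 2.50 (SE 0.33, adjusted p = 1.36e-05). Slfn5, a Schlafen family member, read 5.02, 4.99, 4.70 and 4.79 in WT and 7.21, 6.94, 6.33, 6.88 and 6.18 in 5XFAD microglia. Here too the groups did not meet, and the difference was 1.84 (SE 0.20, adjusted p = 8.16e-07). Lgals3bp, a secreted glycoprotein that binds galectin 3, read 9.48, 9.73, 9.65 and 9.77 in WT and 11.34, 11.37, 10.88, 11.25 and 11.12 in 5XFAD microglia. It rose by 1.54 (SE 0.22, adjusted p = 2.97e-05), in 5 of 5 5XFAD arrays.

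Slfn2 rose by 1.24 (SE 0.25, adjusted p = 0.00118), Rtp4, an interferon-induced receptor chaperone, by 1.18 (SE 0.29, adjusted p = 0.00766), and Xaf1, a partner of the apoptosis inhibitor XIAP, by 0.76 (SE 0.11, adjusted p = 4.84e-05). Rtp4 was 0.42 and did not pass without the 4 arrays with gland transcripts, and Slfn2 was 0.40 and did not pass on the arrays with Y-linked signal alone. Slfn8, the third Schlafen gene measured, which lies between Slfn5 and Slfn2 in the RefSeq order of chromosome 11, differed by -0.32 (SE 0.13, adjusted p = 0.104). Trim30a, Parp14 and Ifi35 differed by 0.26, 0.31 and 0.25, with adjusted p of 0.131, 0.196 and 0.280.

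Cxcl10, the interferon-induced chemokine for cells that carry CXCR3, read 9.74, 9.43, 8.15 and 8.89 on the WT arrays and 10.66, 10.82, 10.03, 10.29 and 10.38 on the 5XFAD arrays. The WT arrays were spread over more than 1 log2 unit and still lay below every 5XFAD array. Cxcl10 rose by 1.39 (SE 0.23, adjusted p = 0.000229), and on the arrays with Xist signal alone the difference was 1.74 and did not pass.

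**Figure D2:**
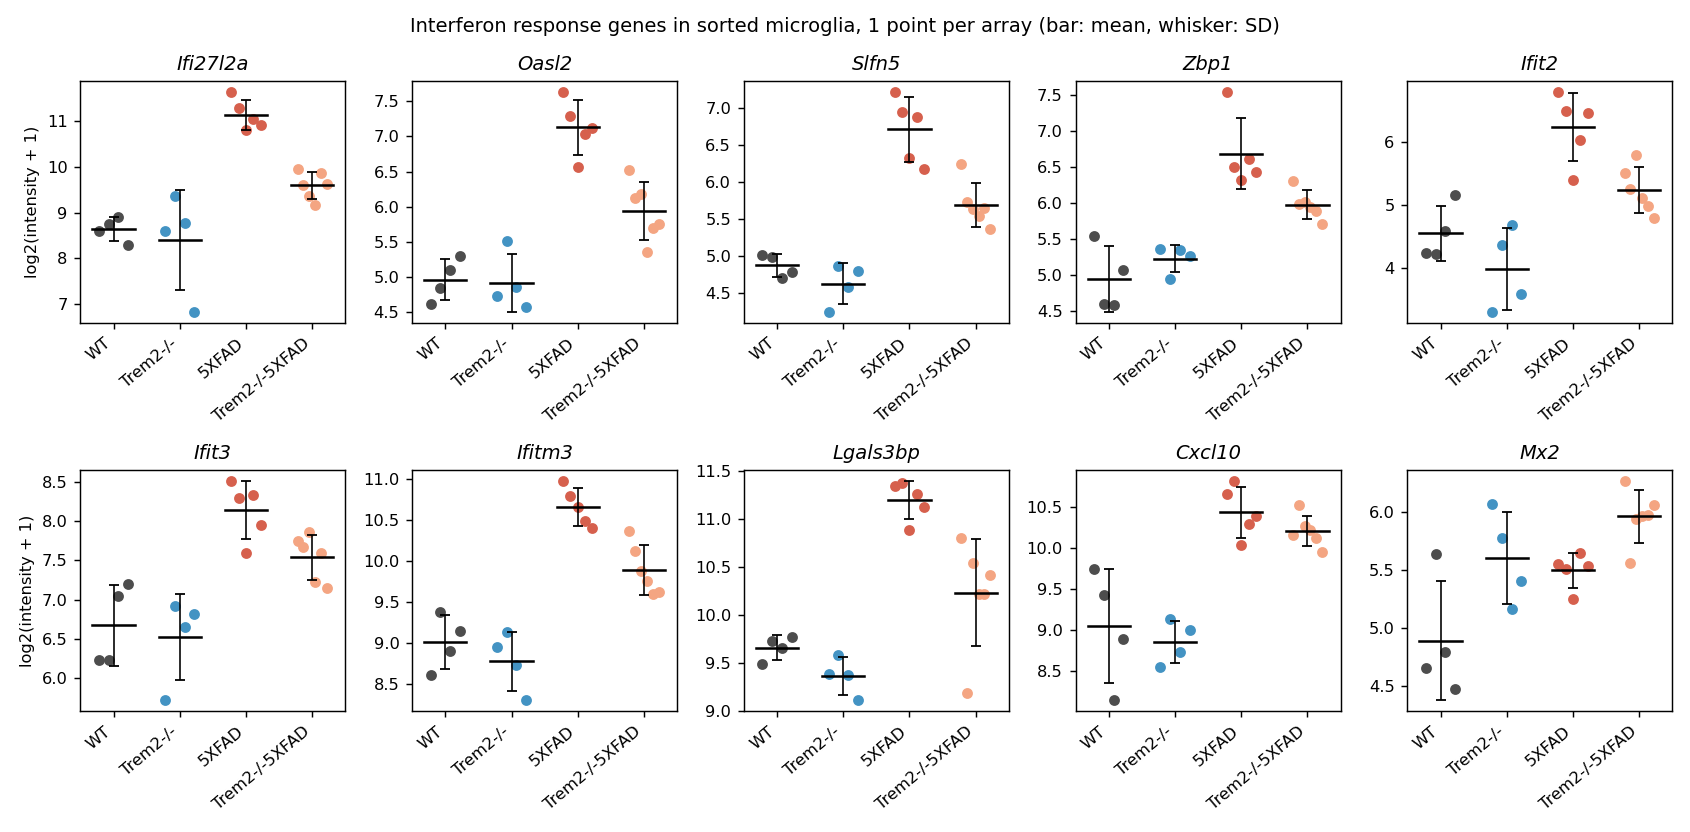
Log2(intensity + 1) of 10 members in the 4 genotypes, 1 point per array, with the group mean as a bar and the SD as a whisker; axes differ between panels and do not start at 0. For Ifi27l2a, Oasl2, Slfn5, Zbp1, Ifitm3 and Lgals3bp the Trem2-/-5XFAD points lie mostly between the plaque-free groups and 5XFAD. For Cxcl10 they lie beside 5XFAD, and for Mx2 mostly above it, with overlap.

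In mice without Trem2 the same question was asked of Trem2-/-5XFAD against Trem2-/- microglia, a pair that shares no array with the pair above. Of 36 tested members 9 were higher and 0 lower, where 1.63% of all tested genes were higher and 0.558% lower. The median log2 difference of the members was 0.49, against 0.02 over all tested genes, and 30 of 36 members had the same sign as in 5XFAD against WT. All 9 were also among the 20 higher in 5XFAD (100% of the 9 and 45% of the 20): Ifitm3, Cxcl10, Slfn5, Rsad2, Bst2, Oasl2, Ifit2, Lgals3bp and Ifit3. The matching shares over all tested genes, for shared calls and for the same sign, were not counted, so neither is a trait of the members alone. The count was 5 without Trem2-/- 1 or without Trem2-/- 3, 5 without the 2 arrays high in neutrophil markers, and 4 on the arrays with Y-linked signal alone (1 Trem2-/- against 6 Trem2-/-5XFAD); with other single arrays left out it was 6 to 12. With the sex signal as a covariate 11 members passed, 6 of them among the 9, while Bst2, Ifit3 and Lgals3bp no longer passed. Cxcl10 and Ifitm3 passed in every alternative tried.

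Cxcl10 read 8.55, 9.13, 8.74 and 9.0 on the Trem2-/- arrays, and on the 6 Trem2-/-5XFAD arrays its lowest, median and highest values were 9.96, 10.19 and 10.52. The groups were apart, and the log2 difference of 1.35 (SE 0.22, adjusted p = 0.00144) was the largest among the 9. Ifit2 read 3.30, 4.37, 4.68 and 3.58 on the Trem2-/- arrays and 4.79, 5.19 and 5.80 at the lowest, median and highest of the Trem2-/-5XFAD arrays. The Ifit2 groups nearly met, and the Trem2-/- mean was under the 40th percentile of the arrays. Its difference was 1.26 (SE 0.28, adjusted p = 0.0195), and was 1.03 and 1.12, no longer passing, without Trem2-/- 1 and Trem2-/- 4.

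Ifitm3 read 8.94, 9.13, 8.72 and 8.29 on the Trem2-/- arrays and 9.60, 9.81 and 10.37 at the lowest, median and highest of the Trem2-/-5XFAD arrays, without overlap. It was higher by 1.12 (SE 0.18, adjusted p = 0.00126). Slfn5 read 4.25, 4.86, 4.59 and 4.79 against 5.37, 5.64 and 6.24, also without overlap, and was higher by 1.07 (SE 0.19, adjusted p = 0.00267). Oasl2 read 4.73, 5.51, 4.86 and 4.57 against 5.35, 5.94 and 6.52. Trem2-/- 2 lay inside the Trem2-/-5XFAD range of Oasl2, and the difference was 1.02 (SE 0.23, adjusted p = 0.0178), no longer passing without Trem2-/- 1, 3 or 4 (0.90 to 1.0).

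Ifit3 read 5.71, 6.92, 6.65 and 6.82 on the Trem2-/- arrays and 7.15, 7.63 and 7.86 at the lowest, median and highest of the Trem2-/-5XFAD arrays. The groups were apart, and the difference was 1.01 (SE 0.24, adjusted p = 0.0298). Its call was lost without Trem2-/- 1 or 3 or Trem2-/-5XFAD 1, 2, 3 or 5 (0.74 to 1.06). Rsad2 was higher by 0.92 (SE 0.17, adjusted p = 0.00437), Bst2 by 0.60 (SE 0.12, adjusted p = 0.0103) and Lgals3bp by 0.87 (SE 0.21, adjusted p = 0.0297). The Trem2-/- mean of Rsad2, 4.17, lay within the range of the 40th percentiles of the arrays (4.16 to 4.34). Bst2 did not pass without Trem2-/- 3 (0.55), and Lgals3bp did not pass without Trem2-/- 1, 3 or 4 or Trem2-/-5XFAD 1, 3, 4, 5 or 6 (0.75 to 0.87).

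Members that were higher in 5XFAD and missed the threshold in the mice without Trem2 included Ifi27l2a (1.20, SE 0.32, adjusted p = 0.0506), Xaf1 (0.41, adjusted p = 0.0510), Ifih1 (0.63, adjusted p = 0.0656), Zbp1 (0.75, adjusted p = 0.0674), Rtp4 (0.98, adjusted p = 0.0779), Irf7 (0.57, adjusted p = 0.0849) and Usp18 (0.70, adjusted p = 0.125). Some passed in other settings: Xaf1 in 10 alternatives, Ifi27l2a in 9, Zbp1 in 6, Ifih1 and Rtp4 in 5 each, Irf7 in 3 and Usp18 in 1. Ifi27l2a read 8.59, 9.37, 8.78 and 6.83 on the Trem2-/- arrays, and Trem2-/- 4 was far below the rest. Slfn2 (0.22, 95% interval -0.27 to 0.72), Oasl1 (0.07, -0.24 to 0.38) and Oas3 (-0.04, -0.33 to 0.25) had differences near 0. Irf1 was lower on every Trem2-/-5XFAD array than on any Trem2-/- array, with a difference of -0.38 that did not pass (adjusted p = 0.384). Among the factors, Stat2 differed by 0.37 and Irf9 by 0.01, and among the sensors Eif2ak2 differed by 0.67, Dhx58 by 0.46 and Ddx58 by 0.08; none of these 5 passed. In the families, Ifit1 differed by 1.0 (SE 0.35, adjusted p = 0.168), Oas2 by 0.34, Herc6 by -0.05 and Irf5 by -0.19, and none of these passed.

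Between the amyloid-bearing groups, 9 members were lower where Trem2 was missing. In Trem2-/-5XFAD against 5XFAD microglia 0 of 36 tested members were higher and those 9 were lower, where 3.21% of all tested genes were higher and 4.46% lower. Centring every array on its own median moved the split of all genes from 409 higher and 568 lower to 286 and 625, and a second quantile normalization moved it to 523 and 499. The median difference of the members was -0.23, against 0.04 over all tested genes. This comparison shares the 5XFAD arrays with the one against WT. Ifi27l2a, Oasl2 and Slfn5 were lower in every alternative tried, and they alone passed without the 4 arrays with gland transcripts, where 5XFAD 3, 4 and 5 remain.

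Ifi27l2a read 10.80 to 11.63 on the 5XFAD arrays and 9.16, 9.61 and 9.94 at the lowest, median and highest of the Trem2-/-5XFAD arrays. The groups did not overlap, and Ifi27l2a fell by 1.54 on the log2 scale (SE 0.30, adjusted p = 0.00192). Oasl2 was 5.94 at the Trem2-/-5XFAD median and 7.13 at the 5XFAD median, without overlap, and fell by 1.19 (SE 0.21, adjusted p = 0.000849). Slfn5 fell by 1.02 (SE 0.18, adjusted p = 0.000689), although Trem2-/-5XFAD 1, at 6.24, lay above 5XFAD 5, at 6.18.

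Ifit2 fell by 0.99 (SE 0.26, adjusted p = 0.0231), and 5XFAD 3, at 5.40, lay inside the Trem2-/-5XFAD range. Lgals3bp read 10.80, 9.18, 10.54, 10.21, 10.22 and 10.42 on the Trem2-/-5XFAD arrays and fell by 0.97 (SE 0.19, adjusted p = 0.0028). All 6 lay below every 5XFAD array, and Trem2-/-5XFAD 2 lay below the others. Ifitm3 fell by 0.77 (SE 0.17, adjusted p = 0.00607), Zbp1 by 0.70 (SE 0.20, adjusted p = 0.0297), Bst2 by 0.46 (SE 0.11, adjusted p = 0.0153) and Xaf1 by 0.41 (SE 0.10, adjusted p = 0.0132). Without 5XFAD 1 the count was 6, as Ifit2 (-0.85), Zbp1 (-0.49) and Bst2 (-0.41) no longer passed. Ifit2 also lost its call without 5XFAD 2 or 5 or Trem2-/-5XFAD 4, 5 or 6 (-0.97 to -0.90), and Zbp1 without Trem2-/-5XFAD 4, 5 or 6 (-0.70 to -0.65).

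Several members called higher in 5XFAD against WT did not pass here. Cxcl10 differed by -0.23 (95% interval -0.67 to 0.21), Rsad2 by -0.24 (-0.57 to 0.09), Irf7 by -0.26 (-0.58 to 0.07). Ifit3 differed by -0.60 (-1.08 to -0.12, adjusted p = 0.134) and Ifih1 by -0.43 (-0.77 to -0.09, adjusted p = 0.135), and Ifit3 passed in a model of the 2 groups alone. Ifit1, not called against WT, differed by -0.32 (-1.01 to 0.37). Mx2 and Oas2 went the other way, by 0.46 and 0.35, and did not pass (adjusted p = 0.147 and 0.172). Mx2 passed as higher in a model of the 2 groups alone (0.46, adjusted p = 0.0256) and among arrays with Y-linked signal (0.48, adjusted p = 0.0489). In the remaining role groups, Usp18 differed by -0.47 and Herc6 by -0.29, Dhx58 by -0.20, Ddx58 by 0.12 and Eif2ak2 by -0.11, Stat2 by 0.17, Irf1 by 0.20, Irf5 by 0.12 and Irf9 by 0.03, and Oasl1 by -0.06 and Oas3 by -0.18; none passed.

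**Figure D3:**
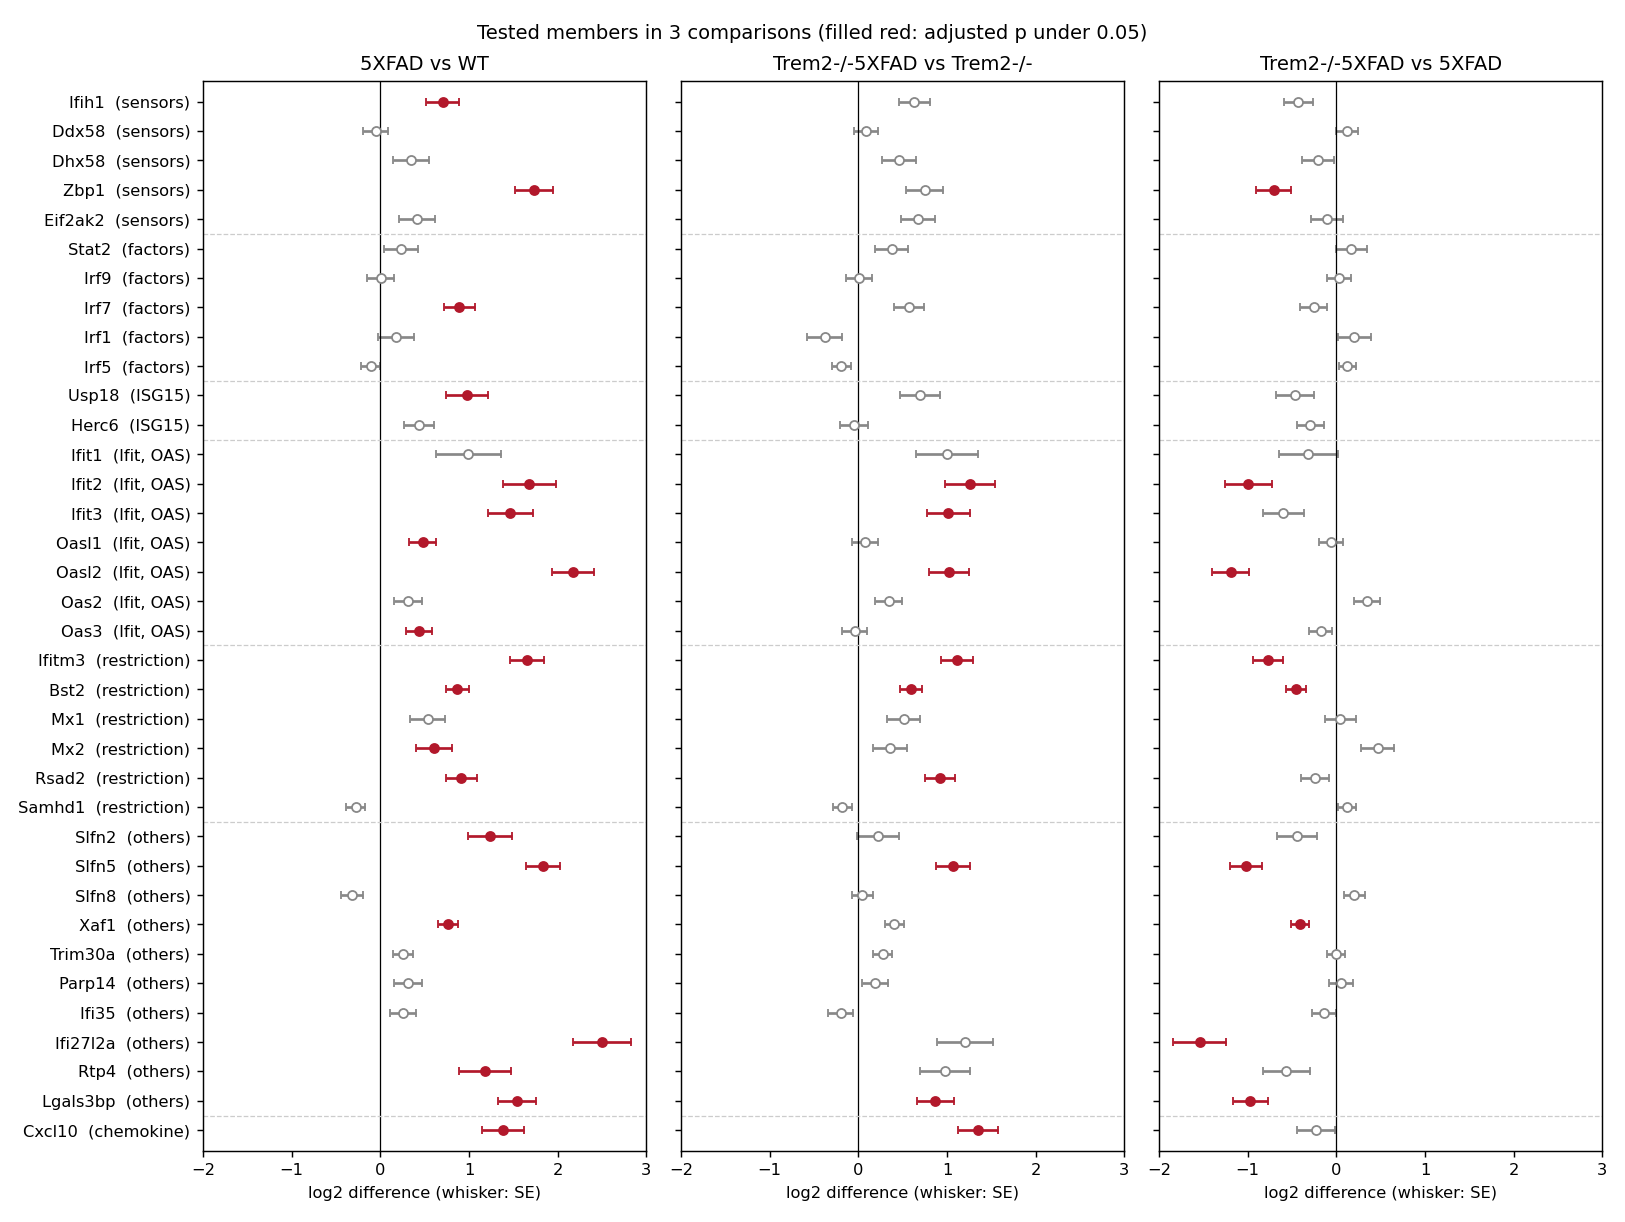
Log2 differences of the 36 tested members in 3 comparisons, with the SE as a whisker and filled red points for an adjusted p under 0.05; dashed lines separate the role groups. Filled points number 20, 9 and 9 from left to right, and all filled points of the first 2 panels lie right of 0 and those of the third left of it.

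Without amyloid, no member was called between Trem2-/- and WT microglia. By limma 0 of 36 passed in either direction, where 0.613% of all tested genes passed. An unadjusted p under 0.05 was found for 4 of the 36 and for 1576 of all 12728 tested genes. The median difference of the members was -0.03, against -0.01 over all tested genes. Irf1 and Mx2 had the smallest p, with differences of 0.76 (95% interval 0.32 to 1.21, adjusted p = 0.127) and 0.71 (0.27 to 1.16, adjusted p = 0.156). Without WT 2 both passed, at 0.93 and 0.96, and without the 4 arrays with gland transcripts Mx2 (0.97) and Slfn2 (1.05) passed. The Irf1 value stands on the brighter of 2 probe sets: the other read 6.2 ± 0.63 (SD, n = 4) in WT and 6.65 ± 0.25 (SD, n = 4) in Trem2-/- microglia, against 8.79 ± 0.35 and 9.55 ± 0.12 on the brighter one, where every Trem2-/- array lay above every WT array. In the families, Ifih1 and Eif2ak2 each differed by -0.36, Dhx58 by -0.31, Zbp1 by 0.28 and Ddx58 by -0.02, Irf5 by 0.21, Irf7 by 0.06 and Stat2 and Irf9 each by 0.03. Ifit2 differed by -0.57, Ifit1 by -0.32 and Ifit3 by -0.15, Oasl1 by 0.35, Oas2 by 0.32, Oas3 by 0.30 and Oasl2 by -0.04, and Usp18 by -0.19 and Herc6 by 0.19. On the arrays with Y-linked signal alone, 1 against 1, Ifi27l2a passed at -1.93, which rests on Trem2-/- 4.

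Against WT, Trem2-/-5XFAD microglia had 10 members higher and 0 lower of 36, where 3.21% of all tested genes were higher and 2.01% lower, and the median member difference was 0.47 against 0.02 over all tested genes. After median centring of the arrays the split of all genes was 302 higher and 334 lower, in place of 408 and 256. Mx2 read 6.27, 5.56, 5.94, 5.96, 5.97 and 6.06 on the Trem2-/-5XFAD arrays and was higher by 1.07 (SE 0.19, adjusted p = 0.00239). WT 2 was the only WT array inside that range. The Mx2 difference was 0.32 among arrays with Y-linked signal (adjusted p = 0.483) and 0.91 with the sex signal as a covariate (adjusted p = 0.0609), and passed in neither. Cxcl10 was higher by 1.16 (SE 0.22, adjusted p = 0.00382), Zbp1 by 1.03 (SE 0.21, adjusted p = 0.00573), Oasl2 by 0.98 (SE 0.23, adjusted p = 0.0140) and Ifitm3 by 0.88 (SE 0.18, adjusted p = 0.00651). Zbp1 read 5.71, 5.97 and 6.31 at the lowest, median and highest of the Trem2-/-5XFAD arrays, above all WT arrays. Ifit3 (0.87, adjusted p = 0.0424), Slfn5 (0.82), Rsad2 (0.67), Oas2 (0.66) and Irf7 (0.63) were the other 5. Members of the families that did not pass were Ifit1 (0.67), Ifit2 (0.69), Oasl1 (0.42), Oas3 (0.26), Usp18 (0.51), Herc6 (0.14), Stat2 (0.40), Irf1 (0.38), Irf9 (0.04), Irf5 (0.01), Eif2ak2 (0.31), Ifih1 (0.27), Dhx58 (0.15) and Ddx58 (0.06). Outside the families, Ifi27l2a (0.96), Slfn2 (0.79), Bst2 (0.41) and Xaf1 (0.35) did not pass in the main model. Bst2 and Slfn2 passed in 7 alternatives each, Ifi27l2a, Xaf1 and Mx1 in 3 each and Lgals3bp in 1. For Ifi27l2a and Xaf1 every Trem2-/-5XFAD array lay above every WT array.

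That count fell to 5 without WT 3, to 6 with the sex signal as a covariate, to 5 with the neutrophil markers as a covariate and to 2 among arrays with Y-linked signal, of which 1 is WT. Zbp1 passed in every alternative tried. Slfn5 (0.76), Oas2 (0.55), Rsad2 (0.65), Irf7 (0.62) and Ifit3 (0.99) were those that no longer passed without WT 3. Rsad2 also lost its call without WT 2 or Trem2-/-5XFAD 1 or 3 (0.59 to 0.63), Irf7 without WT 4 or Trem2-/-5XFAD 3, 5 or 6 (0.58 to 0.63), and Ifit3 without WT 1 or 2, 5XFAD 5 or Trem2-/-5XFAD 1, 2, 3 or 5 (0.72 to 0.87). After median centring, Ifit3 was 0.82 and did not pass.

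Whether the response to 5XFAD differed with Trem2 was tested as the interaction, the difference in Trem2-deficient mice minus that in mice with Trem2. By limma 0 of 36 members passed, where 2.6% of all tested genes passed. An unadjusted p under 0.05 was found for 10 of the 36 and for 1806 of all 12728 tested genes. The split of all genes, 130 above and 201 below 0, was 78 and 224 after median centring of the arrays. The interaction was negative for 25 of the 36, with a median of -0.26 against 0.03 over all tested genes. Oasl2 had the smallest p, at -1.15 (95% interval -1.83 to -0.47, adjusted p = 0.0652), then Zbp1 at -0.99 (-1.61 to -0.36, adjusted p = 0.0965), Slfn2 at -1.01 (-1.73 to -0.30, adjusted p = 0.141) and Ifi27l2a at -1.30 (-2.25 to -0.35, adjusted p = 0.166). Rsad2 (0.00, -0.51 to 0.51), Cxcl10 (-0.04, -0.71 to 0.64) and Ifit1 (0.01, -1.05 to 1.07) had estimates near 0 with wide intervals. Single arrays changed some of these calls: Ifi27l2a passed without Trem2-/- 4 (-1.82), Zbp1 without WT 1 (-1.19), Slfn2 without WT 2 (-1.25), and Oasl2 without 5XFAD 3 (-1.29) or Trem2-/-5XFAD 1 (-1.27). Without the 2 arrays high in neutrophil markers Oasl2 passed (-1.33), and without the 4 arrays with gland transcripts Slfn2 (-1.25) and Zbp1 (-0.88) passed.

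The genes upstream of the response were read from separate lists. Of the type I interferon genes, 6 of 17 listed were tested and 0 passed in 5XFAD against WT (limma; 0 at an unadjusted p under 0.05). Ifnb1, the interferon beta gene, was 3.42, 4.11 and 4.51 at the lowest, median and highest of the WT arrays and 3.35, 4.93 and 5.64 of the 5XFAD arrays, with a difference of 0.68 (95% interval -0.02 to 1.38, adjusted p = 0.194). Its groups overlapped, and the WT median was below the cut-off of the filter. On the Trem2-/-5XFAD arrays Ifnb1 was 4.67, 5.06 and 5.61 at the lowest, median and highest, above every WT array. In Trem2-/-5XFAD against WT, 0 of the 6 ligand genes passed and 3 had an unadjusted p under 0.05 (limma). So had 2500 of all 12728 tested genes. In Trem2-/-5XFAD against Trem2-/- both counts of ligand genes were 0. In 5XFAD against WT the receptor chains Ifnar1 (0.16, -0.10 to 0.42) and Ifnar2 (0.07, -0.12 to 0.27) and the kinases Jak1 (0.02, -0.17 to 0.21) and Tyk2 (0.11, -0.14 to 0.35) did not pass. Of the 9 genes tested in the receptor list, the negative regulators Socs3 and Pias1 fell in 5XFAD, by 0.57 (SE 0.18, adjusted p = 0.0313) and 0.33 (SE 0.10, adjusted p = 0.0264), and none rose. Over all tested genes 6.77% were lower and 8.23% higher.

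Of 17 tested genes of nucleic acid sensing and its adaptors, 4 fell in 5XFAD and 1 rose, beside 6.77% and 8.23% of all tested genes. Sting1, the adaptor of cytosolic DNA sensing, was 10.18, 10.32 and 10.59 at the lowest, median and highest of the WT arrays and 9.24, 9.32 and 9.47 of the 5XFAD arrays. These groups were far apart, and Sting1 fell by 1.01 (SE 0.11, adjusted p = 5.45e-07). The endosomal receptors Tlr3 and Tlr9 and their trafficking chaperone Unc93b1 fell by 0.77, 0.68 and 0.59 (adjusted p = 0.000169, 0.00020 and 0.000405). Zc3hav1, the zinc-finger antiviral protein, rose by 0.49 (adjusted p = 0.0164), and Irf3, the factor below STING1, differed by -0.20 (adjusted p = 0.471).

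In Trem2-/-5XFAD against 5XFAD, Sting1 and Tlr9 were higher, by 0.48 (adjusted p = 0.00231) and 0.44 (adjusted p = 0.00872), and the other 15 of that list did not pass. Over all tested genes 3.21% were higher and 4.46% lower. Within the list the interaction passed for 2 of the 17, beside 2.6% of all tested genes: Sting1 (0.78, SE 0.15, adjusted p = 0.00385) and Unc93b1 (0.55, SE 0.15, adjusted p = 0.0468). Tlr9 (0.56, adjusted p = 0.0595) and Tlr3 (0.62, adjusted p = 0.0669) missed the threshold. The microglial genes Tmem119 and P2ry12 moved in the same directions, with differences of -0.96 and -0.80 in 5XFAD against WT and interactions of 0.69 and 0.58; their part in the sensing genes was not tested.

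**Figure D4:**
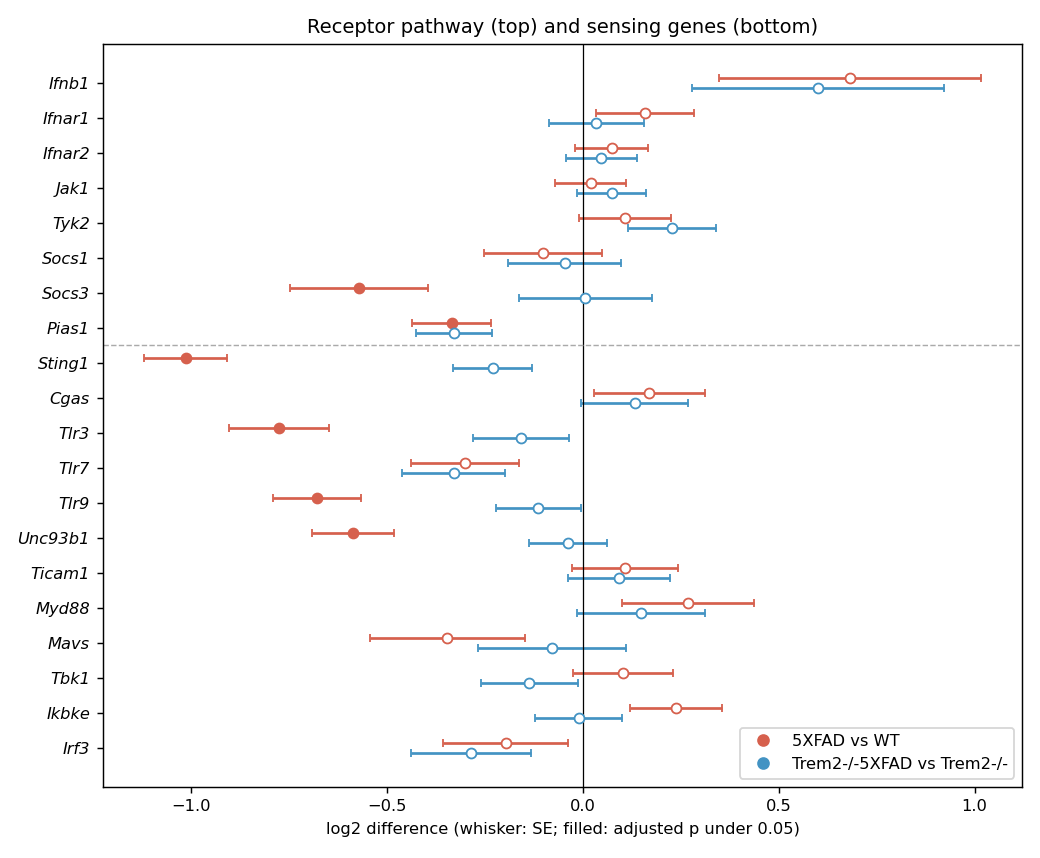
Log2 differences of interferon beta, receptor and regulator genes (top) and of sensing genes (bottom) in 5XFAD against WT and in Trem2-/-5XFAD against Trem2-/- microglia, with the SE as a whisker and filled points for an adjusted p under 0.05. Sting1, Tlr3, Tlr9 and Unc93b1 lie left of 0 in the first pair and nearer 0 in the second, and the receptor chains lie near 0 in both.

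Of 29 other interferon-induced genes tested, 8 rose in 5XFAD against WT and 0 fell, with a median difference of 0.37. Over all tested genes 8.23% rose and 6.77% fell. Oas1a rose by 1.47 (SE 0.39, adjusted p = 0.012), the exonuclease Isg20 by 0.79 (SE 0.21, adjusted p = 0.0117), Helz2 by 0.47 (SE 0.12, adjusted p = 0.00816), the nuclear body protein Sp100 by 1.04 (SE 0.25, adjusted p = 0.00695) and Trim25, the ubiquitin ligase of the RIG-I pathway, by 0.81 (SE 0.13, adjusted p = 0.000144). In Trem2-/-5XFAD against 5XFAD, 2 of the 29 fell, beside 4.46% of all tested genes. These were Trim25, by 0.40 (adjusted p = 0.0385), and Pml, by 0.39 (adjusted p = 0.0257), the latter named after its value was seen. In Trem2-/-5XFAD against Trem2-/-, 1 of the 29 was higher (Tor3a) and 0 lower, with a median of 0.11, beside 1.63% and 0.558% of all tested genes. Against WT, Trem2-/-5XFAD had 1 higher (Ddx60) and 0 lower, with a median of 0.12, beside 3.21% and 2.01%. Without amyloid, Tor3a was lower in Trem2-/- than in WT and 0 were higher, beside 0.613% in either direction. Tor3a and Ddx60 were also named after their values were seen. Genes of the type II interferon pathway had 1 of 10 higher and 2 lower in 5XFAD against WT, beside 8.23% and 6.77% of all tested genes. Jak2 rose by 0.58 (adjusted p = 0.00299), while the receptor chain Ifngr1 fell by 0.84 (adjusted p = 0.000124) and the guanylate-binding protein Gbp7 by 1.13 (adjusted p = 0.00279).

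As array means, the 37 measured members lay between 6.41 and 6.55 on the WT arrays and between 6.34 and 6.64 on the Trem2-/- arrays. The 5XFAD arrays lay between 6.97 and 7.56 and the Trem2-/-5XFAD arrays between 6.83 and 7.19. The amyloid-bearing groups were thus apart from the plaque-free groups and overlapped each other. Single arrays set much of the spread: 5XFAD 1, the only 5XFAD array with Xist signal, was the highest of its group for 22 of the 37 members, and 5XFAD 3 was the lowest for 23. Trem2-/-5XFAD 1 was the highest of its group for 17 members, and its mean of 11 neutrophil markers was 6.07, against 4.25 to 5.24 on the other Trem2-/-5XFAD arrays.

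Markers of other cells moved with some of these groups. The neutrophil mean was 3.66 to 4.10 in WT, 3.84 to 4.81 in 5XFAD, 4.12 to 5.86 in Trem2-/- and 4.25 to 6.07 in Trem2-/-5XFAD microglia, with Mmp8 and Cxcr2 under the 40th percentile on all 20 arrays. The mean of 8 border macrophage markers was 6.07 to 6.93 in WT, 5.28 to 5.94 in 5XFAD, 6.45 to 7.67 in Trem2-/- and 6.39 to 7.08 in Trem2-/-5XFAD microglia. The mean of 7 astrocyte markers was 5.11 to 5.30 in WT, 5.46 to 5.91 in 5XFAD, 4.77 to 5.12 in Trem2-/- and 5.17 to 5.42 in Trem2-/-5XFAD microglia, with 2 of the 7 under that percentile on all 20 arrays. These markers did not move as one: Gfap was called higher and Slc1a3 lower in 5XFAD and in Trem2-/-5XFAD, each against WT. Monocyte and lymphocyte markers averaged 3.39 to 4.33 and 3.30 to 3.63 over the 4 groups. Plasmacytoid dendritic cells are known makers of type I interferon, and the mean of 5 of their markers was 5.11 to 5.46 in WT, 6.46 to 6.81 in 5XFAD, 5.14 to 5.49 in Trem2-/- and 5.52 to 5.83 in Trem2-/-5XFAD microglia. Of that list Cox6a2, Pacsin1 and Il3ra rose in 5XFAD against WT, by 3.51, 1.87 and 1.11, and fell in Trem2-/-5XFAD against 5XFAD, by 1.73, 1.77 and 0.96, while Ly6d did not pass and Ccr9 was under the 40th percentile on all 20 arrays. The part of these markers in the values of the members was not tested.

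**Figure D5:**
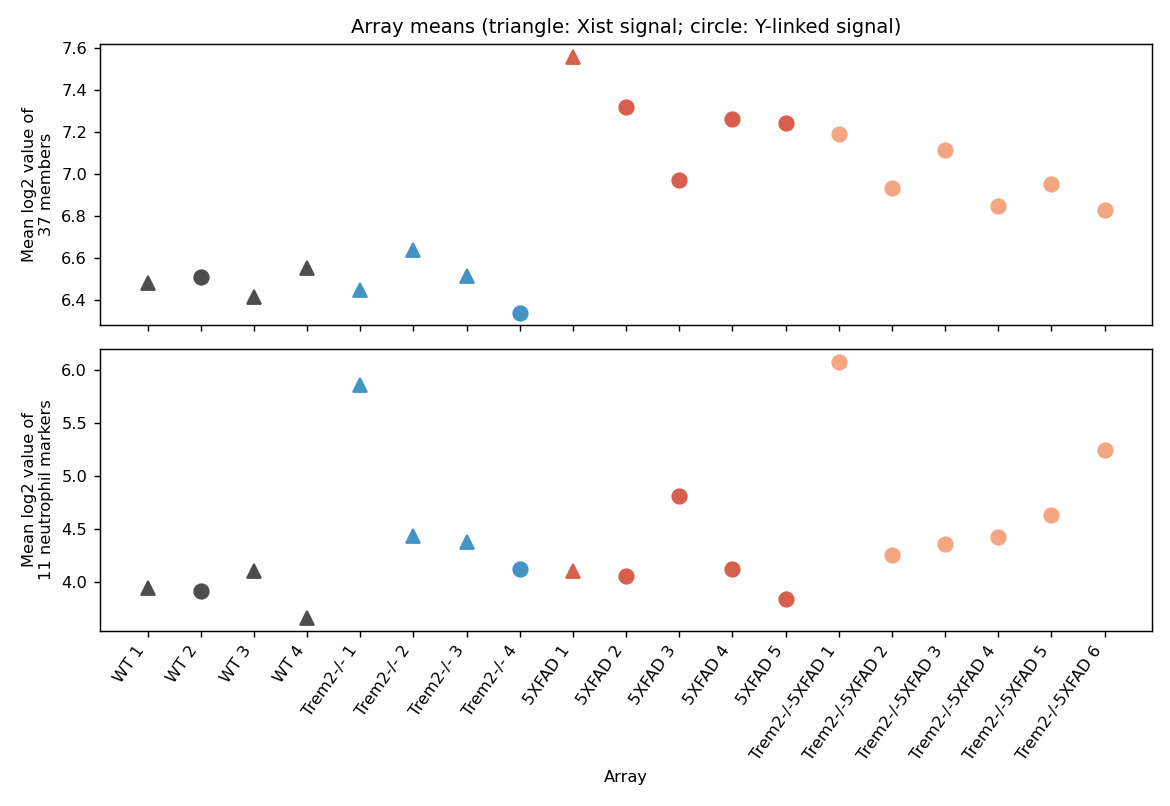
Mean log2 value of the 37 measured members (top) and of 11 neutrophil markers (bottom) on each of the 19 assigned arrays, coloured by genotype; triangles mark arrays with Xist signal and circles those with Y-linked signal. The 11 arrays of 5XFAD and Trem2-/-5XFAD lie above 6.8 for the members and the 8 plaque-free arrays below 6.7, while Trem2-/- 1 and Trem2-/-5XFAD 1 stand out for the neutrophil markers.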

How the data were processed

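Sorted microglia were profiled on 1-colour arrays of biotinylated cRNA, per the labels' protocols. The deposited intensity values are on a linear scale with array medians close together; the authors' summary and normalization method is not stated in these labels, and there is no detection call. Of 24679 probe sets, 21354 named 1 gene, 1275 several and 2050 none; the brightest probe set stood for a gene. Values were taken as log2(intensity + 1), from the deposited intensities. Genes above the 40th percentile of the array (4.16 to 4.34 in log2) on at least 4 assigned arrays were tested, 12728 in all, so a gene high in 1 group alone could pass. One limma 3.58.1 model (R 4.3.3) held the 19 assigned arrays with a mean per genotype; contrasts were moderated with eBayes and adjusted by Benjamini-Hochberg, with a threshold of 0.05. The scripts were tested on simulated data.

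The members and lists were chosen with earlier results of these data known. By rule, array values are given for the 6 called members with the largest difference in each comparison, and families are given whole. The 4 gland transcripts were chosen after their values were seen. Replicate numbers in the labels were not used to pair the arrays in the main model. Over all groups, 5 of 25 same-number pairs and 13 of 109 other pairs had correlated deviations above 0.1. Between WT and 5XFAD, 3 of 4 same-number pairs were above 0.1 and the range was 0.095 to 0.166. The gland transcripts also fell on the same numbers, 1 and 2, in these 2 groups. Whether these arrays were handled in pairs is not known. Alternatives covered the pseudocount, filter, scaling, probe sets, covariates, replicate block, variance prior and left-out arrays; fits on the arrays of 1 sex signal were added after the data were seen. The number of arrays limits the precision.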

Additional observations from a re-analysis of the deposited data

Results flagged for a closer look

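In 10 of 148 sets of arrays (1 member in 1 genotype group each) the highest or lowest array stood far from the others of its group by Dixon's criterion, which chance gives in about 1 of 20. The log2 values were as follows. Zbp1 was high on 5XFAD 1, at 7.55, and Stat2 was high on 5XFAD 5, at 6.97. Ifit1 was low on 5XFAD 3, at 4.14, under the 40th percentile of the arrays. Among the WT arrays, Ddx58 was high on WT 4, at 7.06, Usp18 was high on WT 1, at 6.0, and Eif2ak2 was low on WT 1, at 5.34. Among the Trem2-/-5XFAD arrays, Irf1 and Lgals3bp were low on Trem2-/-5XFAD 2, at 8.58 and 9.18, Slfn8 was low on Trem2-/-5XFAD 6, at 7.16, and Xaf1 was high on Trem2-/-5XFAD 1, at 7.06.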

How the results depend on the processing

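Of 1695 recomputed log2 differences of called members, 1511 kept their direction and their call, 183 kept the direction without passing, and 1 reversed: Mx2 in 5XFAD against WT was -0.15 on the arrays with Y-linked signal alone. Part of these could not change direction. Leaving out an array of a group outside the comparison, or changing the filter or the variance prior, leaves the difference as it was. Only the call could change there. Counts of called members were 20 (5XFAD against WT), 9 (Trem2-/-5XFAD against 5XFAD), 0 (Trem2-/- against WT), 9 (Trem2-/-5XFAD against Trem2-/-), 10 (Trem2-/-5XFAD against WT) and 0 (interaction). With 1 array left out at a time they ranged from 17 to 22, 6 to 10, 0 to 2, 5 to 12, 5 to 12 and 0 to 1. With the replicate block they were 19, 7, 0, 8, 7 and 1, where the block rests on shared numbers only. Calls lost there were Mx2 and Oas3 (5XFAD against WT), Ifit2 and Xaf1 (Trem2-/-5XFAD against 5XFAD), Ifit2, Ifit3 and Lgals3bp (against Trem2-/-) and Ifit3, Irf7 and Oas2 (Trem2-/-5XFAD against WT). The interaction count was also 1 with a pseudocount of 16, with the conflicting array in WT and without the 2 arrays high in neutrophil markers, and 2 without the 4 arrays with gland transcripts. Without those 4 arrays, 3 members passed in Trem2-/-5XFAD against 5XFAD and 2 in Trem2-/- against WT, and without the neutrophil-high arrays 5 in Trem2-/-5XFAD against Trem2-/-. Trem2-/-5XFAD against WT gave 6 with the sex signal and 5 with the neutrophil markers as a covariate. Added after seeing the data, the arrays with Y-linked signal alone gave 10, 9 (8 lower and 1 higher), 1, 4 and 2 in the first 5 comparisons, and those with Xist signal alone 13 in 5XFAD against WT; fewer arrays enter these fits. Median centring of the arrays moved the split of all genes in Trem2-/-5XFAD against Trem2-/- from 207 higher and 71 lower to 141 and 92. The cause of the other changes was not tested. A fit of the contrast's own groups was not run for the interaction, which uses all 4. Rsad2, Oas2 and Oas3 gave no value under the stricter filter, which they did not pass. Without a detection call, values of dim members such as Mx1, Ifit1 and Cmpk2 have no measured floor.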

Other observations

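One array has a title that gives WT and a genotype that gives Trem2-/-, and it entered no group. Its Trem2 log2 value was 11.08 and the mean of the 37 members was 6.63. Its Ifi27l2a, Oasl2, Slfn5 and Cxcl10 values were 8.99, 4.78, 5.07 and 9.10.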
